A study of Mus musculus with 14 samples.

Results

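This account compared reporter-negative CD4+ T cells from a 4-day Th1 culture held with the DOT1L inhibitor SGC0946 against naive CD4+ T cells, by RNA sequencing across all protein-coding genes in the deposited count table. The members were chosen by their labels: 3 libraries of reporter-negative cells with SGC0946 (YFPneg SGC0946) and 3 naive libraries, together 6 of the 14 libraries in the series. All mice were C57BL/6 and carried an interferon-gamma reporter that marks cells with YFP, and spleen together with peripheral lymph nodes was the source of all cells. The naive group was sorted as CD4+ CD44- cells straight from the tissue and received no culture or compound. The cultured cells started from enriched CD4+ T cells, which were not sorted for naive cells and so could hold memory and regulatory T cells at the outset. They received 1 µg/ml each of anti-CD3 and of anti-CD28 bound to the plate, 10 ng/ml each of IL-12 and of IL-2, anti-IL4 at 10 µg/ml and SGC0946 at 1 µM for 4 days, and YFP-negative cells were then sorted. Reporter-negative cells with SGC0649 at 1 µM (2 libraries), the inactive control compound, and reporter-positive cells with SGC0946 (3 libraries) had the same mice, culture and duration and are used only to place the values. An untreated or vehicle-treated culture was not analysed here, so a difference between YFPneg SGC0946 and naive cells joins activation, culture, reporter sort and compound, which cannot be told apart in this comparison.

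Naive CD4+ T cells are small, resting cells that recirculate through lymph nodes under the control of CCR7 and S1PR1 and depend on IL-7. Engagement of the T cell receptor and CD28 makes them grow and divide, and IL-12 acting through STAT4, with interferon-gamma acting through T-bet, moves them to the T helper 1 (Th1) fate, whose hallmark is secretion of interferon-gamma. DOT1L is the enzyme that methylates lysine 79 of histone H3 in the body of transcribed genes, and in CD4+ T cells it is known for its influence on how strictly the Th1 genes are controlled. Reporter-negative cells are those that had been through the culture without visible reporter signal at the sort.

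Library totals were 17236390, 16856850 and 18306721 counts for naive replicates 1 to 3 and 18697151, 16035244 and 14486577 for YFPneg SGC0946 replicates 1 to 3. Pairs of naive libraries correlated at 0.9941 to 0.9945 (Pearson's r of log2 CPM across genes, which are not independent replicates) and pairs of YFPneg SGC0946 libraries at 0.9633 to 0.9795. YFPneg SGC0946 replicate 3 was the farthest from its group, with 12041 genes with a count against 13073 and 12933 in replicates 1 and 2. Reads left unmapped were 7.40% to 8.66% of naive libraries and 3.14% to 4.62% of YFPneg SGC0946 libraries, and mitochondrial genes took 1.57% to 1.60% and 1.46% to 1.80% of counts. The first principal component of the 14 libraries held 85.3% of the variance. Values below are CPM, the counts a gene would have in a library of 1000000 counts, after scaling for library composition, and p-values are those of edgeR's quasi-likelihood test, adjusted by Benjamini-Hochberg over the 12343 genes tested, with a threshold of 0.05. Only the study's own description calls the libraries biological replicates, so the p-values measure the spread between these libraries. CPM is a share of a library, so each rise or fall is relative to the other RNA. Amounts per cell were not measured. In bulk RNA, fewer cells of a type and less RNA per cell cannot be told apart, which touches every difference given below.

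Most genes differed. Of 12343 genes tested, 9003 (72.9%) passed, 4768 (38.6%) higher and 4235 (34.3%) lower in YFPneg SGC0946 than in naive cells. A difference of at least 2-fold was reached by 2577 genes (20.9%) that were higher and by 1295 (10.5%) that were lower. The median log2 fold change over all genes was 0.05. By fitted value, 647 genes were higher by at least 5 on the log2 scale and 41 lower. For genes with no count in a group the fitted value depends on the prior count. Inha, for example, was fitted at 5.2 with a lower bound of 3.76-fold. Of the genes tested, 373 had no count in naive and 43 none in YFPneg SGC0946 libraries. The part of this in the asymmetry was not tested. The libraries of the groups did not overlap for 4505 higher (36.5%) and 4359 lower genes (35.3%). For 3626 genes (29.4%) the 95% interval of the difference lay within 1.5-fold of naive in either direction. These shares are the background against which the counts for gene lists below are read. Since so many genes passed, a count of calls says little by itself and the sizes of the differences carry more.

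**Figure D1:**
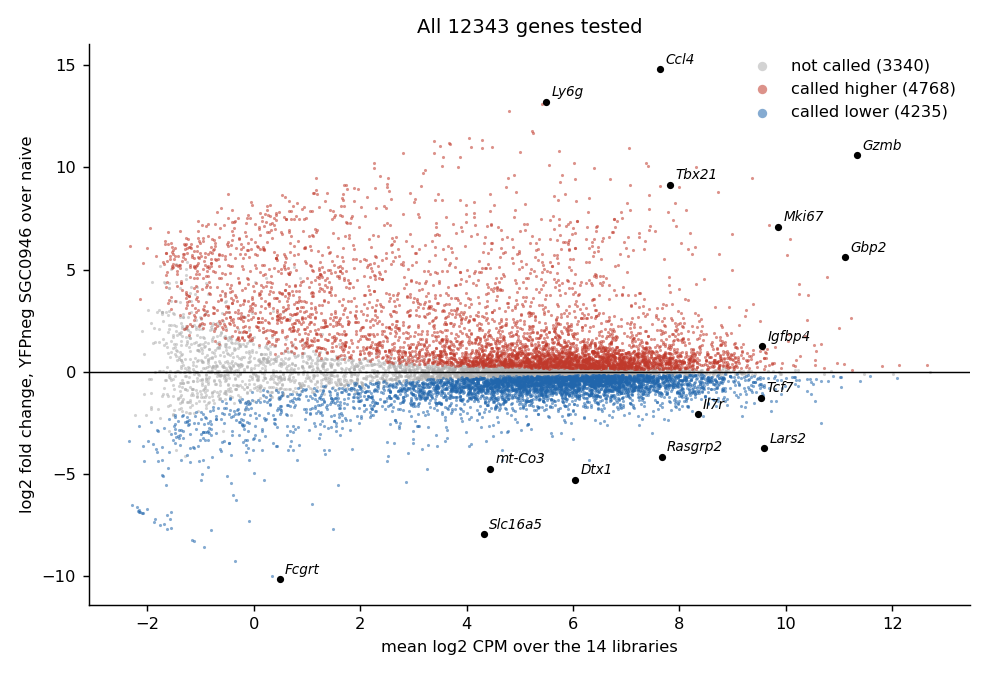
Log2 fold change of YFPneg SGC0946 over naive (y axis) against mean log2 CPM over the 14 libraries (x axis), 1 point for each of the 12343 genes tested, coloured by call. Fitted values of the 4768 genes called higher reach further from 0 than those of the 4235 called lower, and Tbx21, Mki67 and Ly6g lie among the highest. Genes with no count in a group are drawn at the fitted value, which depends on the prior count.

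**Figure D2:**
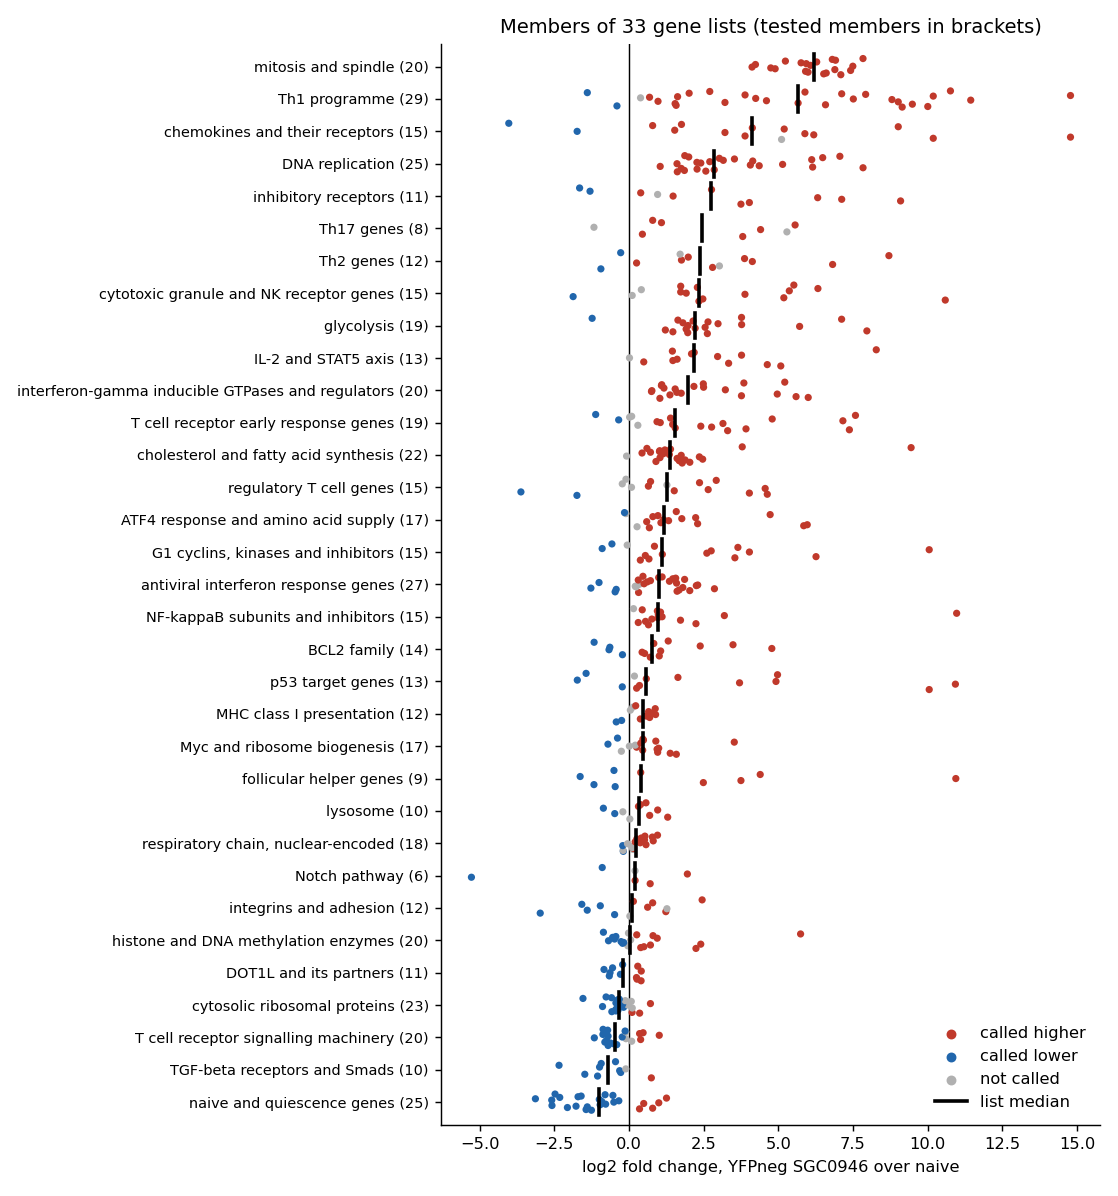
Log2 fold change of YFPneg SGC0946 over naive (x axis) for the tested members of 33 gene lists (rows), 1 point for each gene, coloured by call, with a bar at the median of each list. The mitosis list has the highest median (6.18) and the list of naive and quiescence genes the lowest (-1.0); genes with no count in the naive libraries are drawn at the fitted value, which depends on the prior count.

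Libraries of cells sorted without visible reporter signal held RNA of the Th1 programme, interferon-gamma included. The part of any reporter-positive cells left by the sort was not tested. Ifng (ENSMUSG00000055170, chr10:118441046-118445892, GRCm38), which encodes the cytokine the reporter tracks, stood at 0, 0.187 and 0 CPM in naive replicates 1 to 3 and at 114, 55.4 and 31.2 CPM in YFPneg SGC0946 replicates 1 to 3. Every cultured library was far above every naive library, and the cultured libraries themselves spanned more than a 3-fold range. Over the groups this was 3 counts against 3467, a ratio of 1186 (95% counting interval 405 to 5754) between the CPM of the groups. In YFPpos SGC0946 libraries Ifng stood at 701, 532 and 700.4 CPM, above all YFPneg SGC0946 libraries (log2 difference 3.26 (SE 0.32), adjusted p = 2.24e-07, edgeR). These groups were sorted by the reporter of this gene, so the direction was set by the sort. The p-value is therefore no separate support.

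Tbx21 (ENSMUSG00000001444, chr11:97098071-97115331), which encodes T-bet, the master transcription factor of Th1 cells, was at 0.36, 0.561 and 0.51 CPM in naive libraries and at 277, 279 and 265 CPM in YFPneg SGC0946 libraries. It rose by 9.15 (SE 0.12) on the log2 scale (adjusted p = 2.09e-19, edgeR's quasi-likelihood test). Unlike Ifng, it varied little among the cultured libraries, and in YFPpos SGC0946 libraries it was at 322, 332 and 314 CPM, only 0.24 higher on the log2 scale (adjusted p = 0.00268).

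Of the 29 genes of the Th1 list, 26 were higher, 2 lower and 1, Fasl, did not pass, against 38.6% higher and 34.3% lower among all genes. The list's median was 5.66 (4.24 with the 5 members that have no naive count set at their lower bound), against 0.05 for all genes. Il12rb2, the subunit that makes the IL-12 receptor signal, went from 0.779, 1.87 and 0.68 CPM to 841, 749 and 779 CPM and rose by 9.49 (SE 0.19). Its partner subunit Il12rb1 rose by 6.58 (SE 0.13), and Bhlhe40, a transcription factor that sustains cytokine production, by 8.81 (SE 0.18). The lower members were Stat4 and Ifngr2. Stat4, which carries the IL-12 signal, fell modestly from 81.3, 90.3 and 82.4 CPM to 66, 55 and 71 CPM (-0.4 (SE 0.09)). Ifngr2, the limiting chain of the interferon-gamma receptor, went from 87.1, 86.1 and 87.9 to 29.2, 33 and 37.2 CPM (-1.4 (SE 0.12)) and was lower still in YFPpos SGC0946 libraries, at 4.18, 5.76 and 4.94 CPM.

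**Figure D3:**
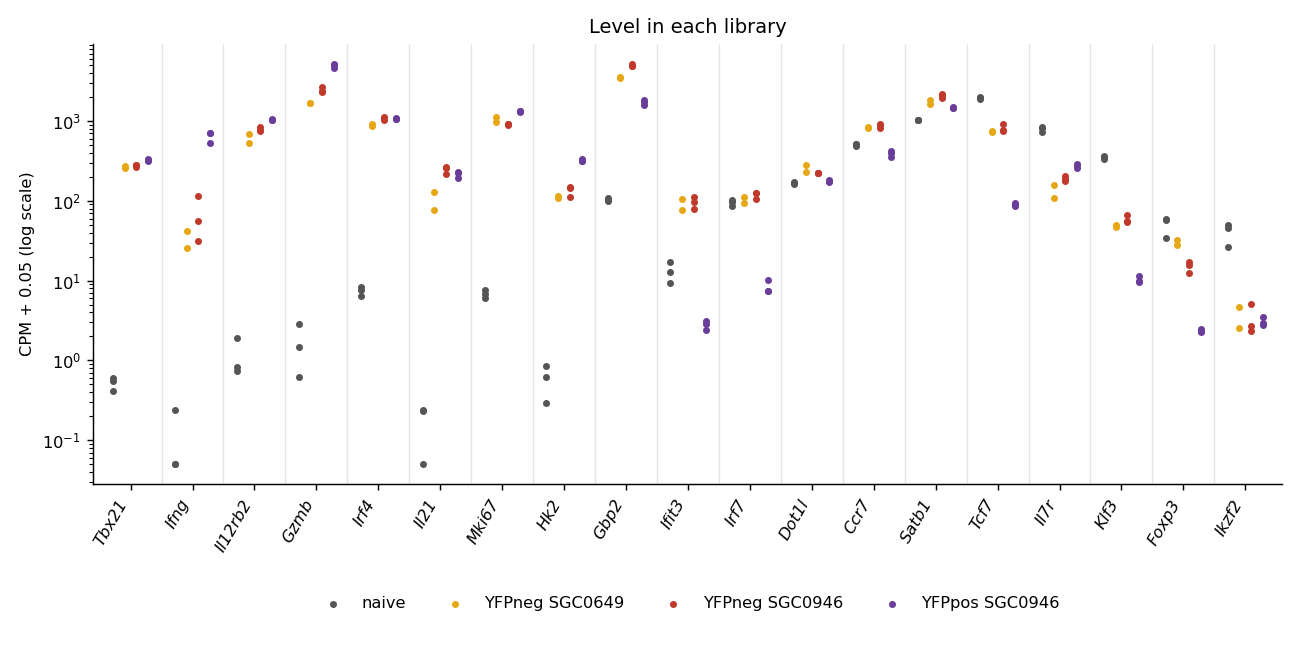
CPM + 0.05 on a log scale (y axis) of 19 genes (x axis) in each library of 4 groups (colours), 1 point for each library. Th1, activation and cell cycle genes separate naive from cultured libraries widely, while Ccr7 and Satb1 are a little higher in YFPneg SGC0946 than in naive libraries and Tcf7, Il7r and Klf3 are lower.

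Effector genes of killing and recruitment were also high. Gzmb, which encodes the protease granzyme B, went from 1.44, 2.8 and 0.567 CPM to 2305, 2632 and 2365 CPM (10.59 (SE 0.19), adjusted p = 9.94e-18). 12 of the 15 cytotoxic granule and NK receptor genes were higher and 1, Gzmm, was lower (median 2.34). Cst7, an inhibitor of granule cathepsins, rose by 3.88 (SE 0.17) and Srgn, the proteoglycan on which granule proteins are packed, by 1.92 (SE 0.08). Prf1, which encodes the pore-forming protein perforin, did not pass. Reads of closely related granzyme and Ctla2 genes can be hard to assign, so values of single members of these families are less certain.

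Chemokines and their receptors were higher for 12 of 15 members and lower for 2 (median 4.13, or 3.89 with genes absent from naive libraries at their bound). Ccl4, a chemokine of activated lymphocytes, had no count in any naive library and stood at 201, 163 and 154 CPM in YFPneg SGC0946 libraries, at least 2935-fold higher. Ccl3, its close relative, went from 0.0599, 0 and 0.17 CPM to 134, 83 and 81.4 CPM. The members that fell were Cxcr4, at 92.2, 89.9 and 129 against 31.3, 28.4 and 33.7 CPM (-1.74 (SE 0.15)), and Ccr9, the gut-homing receptor (-4.03 (SE 0.43)).

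Inhibitory receptors rose for 8 of 11 members, with a median of 2.76. Lag3 went from 0.419, 0.374 and 0.907 CPM to 320.2, 364 and 269 CPM (9.09 (SE 0.28)), Tigit rose by 6.32 (SE 0.31), Ctla4 by 4.03 (SE 0.11) and Pdcd1, which encodes PD-1, by 3.75 (SE 0.12). Members that fell were Cd96 (-1.65 (SE 0.11)) and Tox, a factor of exhausted and developing T cells (-1.31 (SE 0.12)).

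Genes of other helper fates moved in both directions. Foxp3, the defining factor of regulatory T cells, was at 33.7, 57 and 59.7 CPM in naive libraries and 16.9, 12.4 and 15.5 CPM in YFPneg SGC0946 libraries, with no overlap, and fell by 1.74 on the log2 scale (adjusted p = 8.96e-07). Ikzf2, which encodes Helios, fell further, from 26.5, 49.8 and 45.1 to 2.67, 2.31 and 5.02 CPM (-3.62 (SE 0.29)). Naive replicate 1 was the lowest naive library for both. 9 of the 15 genes of the regulatory T cell list were nevertheless higher, among them Il2ra (4.63 (SE 0.15)), Tnfrsf4 (4.56 (SE 0.10)) and Ctla4, which activated conventional T cells are also known to express.

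Gata3, the master factor of Th2 cells, fell from 62.7, 57.7 and 66.5 CPM to 34.7, 31.6 and 31 CPM (-0.94 (SE 0.13)), and Stat6, which carries the IL-4 signal, by 0.28 on the log2 scale. The other called members of the Th2 list were higher (8 of 12, or 5 with only the 2 groups in the model), such as Maf, a transcription factor shared by several helper fates, at 4.79, 6.73 and 8.05 against 28.8, 23.2 and 25.4 CPM (1.98 (SE 0.17)). Of the Th17 list 6 of 8 were higher and none lower (median 2.45, or 1.56 with the member absent from naive libraries at its bound). Without YFPneg SGC0946 replicate 1 the count was 6 higher and 1 lower with a median of 0.88, and with limma-voom 5 higher and 1 lower (median 1.37). Il23r, a subunit of the IL-23 receptor, at 0.12, 0 and 0 against 2.14, 0.624 and 0 CPM, overlapped between the groups and did not pass with limma-voom.

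The follicular helper list split, with 5 members higher and 4 lower of 9 (median 0.39), against 38.6% and 34.3% of all genes. Il21, the cytokine that acts on B cells and on T cells themselves, stood at 0.18, 0.187 and 0 CPM in naive libraries and 267, 216 and 257 CPM in YFPneg SGC0946 libraries (10.94 (SE 0.37)). Icos, a costimulatory receptor, rose by 2.49 (SE 0.06). Sh2d1a, which encodes the adaptor SAP, fell (-1.64 (SE 0.14)). Bcl6, the master factor of follicular helper cells, was at 37.6, 39.6 and 38.9 against 25.6, 30.1 and 28.5 CPM (-0.46 (SE 0.18), adjusted p = 0.0255), a call lost without naive replicate 2, naive replicate 3 or YFPneg SGC0946 replicate 1. Cxcr5 passed with overlapping libraries and lost its call under several alternatives.

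The naive and quiescence programme was lower in most members yet not all. Of 25 genes 20 were lower and 5 higher, with a median of -1.0. Tcf7, which encodes TCF-1, a factor of naive and memory T cells, was at 1991, 1892 and 1933 CPM in naive and 761, 756 and 914 CPM in YFPneg SGC0946 libraries (-1.26 (SE 0.07), adjusted p = 1.85e-11). In YFPpos SGC0946 libraries it was at 93.9, 88.8 and 85.8 CPM, so the reporter-negative level lay between the other 2 groups. Il7r, the receptor for the survival cytokine IL-7, fell from 809, 737 and 842 to 207, 175 and 189 CPM (-2.06 (SE 0.18)). Klf3, a repressor found in resting lymphocytes, fell by 2.58 on the log2 scale, Il6ra by 2.59, Actn1, which encodes the actin crosslinker alpha-actinin, by 2.32, and Lef1, the partner of TCF-1, by 1.44.

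Of the 5 members that were higher, 4 are described here. Ccr7, the receptor that guides cells into lymph nodes, went from 511, 484 and 513 to 824, 907 and 879 CPM (0.79 (SE 0.06), adjusted p = 6.85e-09). Satb1, a chromatin organiser of T cells, was at 1035, 1025 and 1038 and 2092, 1928 and 2161 CPM (1.0 (SE 0.07)), and Igfbp4, a binding protein of insulin-like growth factors, at 535, 510.1 and 559 and 1134, 1387 and 1310.1 CPM (1.26 (SE 0.08)). Bach2, which represses effector differentiation, rose by 0.49 (SE 0.07). For all 4 the lowest YFPneg SGC0946 library was above the highest naive library, and all 4 were lower in YFPpos SGC0946 than in YFPneg SGC0946 libraries, by 1.16 (Ccr7), 0.49 (Satb1), 1.78 (Igfbp4) and 1.51 (Bach2) on the log2 scale. Cd44, the activation marker whose absence defined the sorted naive cells, went from 43.4, 45 and 50.7 to 92.8, 75.6 and 72.2 CPM (0.79 (SE 0.13)).

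Adhesion genes divided evenly, 5 higher and 5 lower of 12, near the shares of all genes (38.6% higher and 34.3% lower). Icam1, the ligand of LFA-1, rose by 2.45 (SE 0.08) and Itgb1 by 1.23 (SE 0.08), while Itga4, the alpha chain of VLA-4, fell from 649, 664 and 625 to 79.2, 86.3 and 81.2 CPM (-2.97 (SE 0.09)) and Itga6 by 1.58 on the log2 scale. Receptors and mediators of TGF-beta were lower for 8 of 10 (median -0.69): the inhibitory Smad7 went from 169, 165 and 164 to 34.6, 30.4 and 32.8 CPM (-2.34 (SE 0.08)), the receptor Tgfbr2 fell by 1.48 and the shared mediator Smad4 by 0.99 on the log2 scale. The ligand Tgfb1 rose by 0.75 (SE 0.06). Of the 6 Notch genes, Dtx1, an E3 ligase linked to T cell anergy, had 1 of the largest falls of all genes, from 305, 307 and 275 to 4.97, 8.42 and 9.83 CPM (-5.28 (SE 0.17)), and Rbpj, the DNA-binding effector of Notch, rose by 1.95 (SE 0.10). Calls for Notch2 (0.20) and Nrarp (-0.90) were lost when single libraries were left out, including naive replicates 1 and 2.

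Genes known to respond to T cell receptor signals were higher than in naive cells in 14 of 19 members (median 1.55). Irf4, a transcription factor whose level follows receptor signal strength, went from 6.41, 8.35 and 7.54 to 1121, 1026 and 1047 CPM (7.16 (SE 0.08), adjusted p = 1.23e-19). Nr4a1, which encodes NUR77, stood at 42.2, 44 and 42.1 and 427, 426 and 413 CPM (3.3 (SE 0.07)) and was at 101, 103 and 111 CPM in YFPpos SGC0946 libraries, well below the reporter-negative ones. Nr4a2 rose by 7.38 (SE 0.25) and Jun, a subunit of AP-1, by 3.15 (SE 0.09). Zfp36, an RNA-binding protein that shortens the life of cytokine mRNAs, fell by 1.12 on the log2 scale, and Dusp2 passed with overlapping libraries (-0.35).

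The receptor's own machinery was lower in 13 of 20 members and higher in 4 (median -0.46). Cd4 went from 1019, 1045 and 1052 to 551, 571 and 577 CPM (-0.88 (SE 0.06)), the kinase Lck from 1239, 1308 and 1295 to 726, 744 and 722 CPM (-0.81 (SE 0.05)) and the phospholipase Plcg1 fell by 1.16 on the log2 scale. The costimulatory receptor Cd28 was the main exception, at 460.1, 441 and 426 against 948, 816 and 912 CPM (1.01 (SE 0.08)). NF-kappaB genes were higher in 14 of 15 with none lower (median 0.96), among them Bcl3 (3.19 (SE 0.12)) and Nfkb2 (2.24 (SE 0.06)). Tnip3, an inhibitor of this pathway, had no count in naive libraries and stood at 12.7, 13.5 and 10.6 CPM, at least 207-fold higher.

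The IL-2 axis was higher in 12 of 13 members, none lower (median 2.18). Il2ra, which encodes the alpha chain CD25 of the high-affinity receptor, went from 36.6, 60 and 59.1 CPM to 1496, 1254 and 1106 CPM. Il2rb rose by 3.34 (SE 0.11). Cish, a feedback inhibitor induced by STAT5, rose by 2.97 (SE 0.10) and the kinase Pim1 by 2.18 (SE 0.06).

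Genes of the interferon response separated YFPneg SGC0946 cells both from naive and from reporter-positive cells. They code for guanylate-binding proteins and IRG proteins, which are typical of the response to interferon-gamma, and for antiviral proteins, which respond to type I interferon and in part to interferon-gamma. Their promoters often hold the interferon-stimulated response element (ISRE), and 3 are shown here because their genes stand for the groups described next: Gbp2 and Irgm1 for the interferon-gamma list and Isg15 for the antiviral list. Each line holds the 120 bases before the transcription start in RefSeq (GRCm38.p6), written 5′ to 3′ on the strand of the gene, with matches to the ISRE core (GAAA, any 2 bases, GAAA) or its reverse complement (TTTC, any 2 bases, TTTC) in capitals. The windows are chr3:142620543-142620662 (plus strand), chr11:48871421-48871540 (minus strand) and chr4:156200819-156200938 (minus strand).
Gbp2: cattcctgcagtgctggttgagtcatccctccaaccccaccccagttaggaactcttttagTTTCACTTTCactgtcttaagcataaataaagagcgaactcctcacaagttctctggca
Irgm1: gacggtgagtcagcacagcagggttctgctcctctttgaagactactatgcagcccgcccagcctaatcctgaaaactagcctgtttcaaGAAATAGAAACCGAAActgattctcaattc
Isg15: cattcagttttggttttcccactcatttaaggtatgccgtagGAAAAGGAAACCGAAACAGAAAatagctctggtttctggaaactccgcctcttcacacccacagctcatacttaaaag

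In the 300-base RefSeq windows from 250 bases before to 50 after the start, 11 of the 14 genes of the interferon-gamma list with a window (78.6%) and 11 of the 19 of the antiviral list (57.9%) held the ISRE core on either strand, against 3.85% of the 9413 tested genes with a window. Among antiviral genes called higher it was 8 of 13 (61.5%). A match is a description of letters and not a shown binding site. The match in Gbp2 begins 59 bases before the start, and those in Irgm1 (2 overlapping matches) and Isg15 (3 overlapping matches) begin 30 and 78 bases before it.

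All 20 genes of the interferon-gamma list were higher in YFPneg SGC0946 than in naive libraries, with a median of 1.96. Gbp2 went from 102, 109 and 98.8 CPM to 4907, 4868 and 5173 CPM (5.59 (SE 0.11), adjusted p = 3.57e-17), which made it the most abundant named member. Gbp5 rose from 29.3, 31.3 and 31 to 894, 923 and 1043 CPM (4.96 (SE 0.08)), Igtp by 2.5 (SE 0.06) and Irf8, a transcription factor of this response, from 4.85, 5.48 and 5.5 to 332, 359 and 325 CPM (6.0 (SE 0.09)). GBP and IRG genes lie in families of near copies, so reads may be split or lost between members. In YFPpos SGC0946 libraries Gbp2 was at 1731, 1814 and 1574 CPM, below every YFPneg SGC0946 library (-1.55 (SE 0.09) for YFPpos over YFPneg, adjusted p = 5.19e-10), and Irf8 did not pass (0.06).

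Of the 27 antiviral genes 20 were higher and 4 lower than in naive libraries (median 0.99). Ifit3, an antiviral RNA-binding protein, was at 12.9, 9.28 and 17.1 CPM in naive, 78.4, 96.8 and 111 CPM in YFPneg SGC0946 and 2.36, 3.1 and 2.82 CPM in YFPpos SGC0946 libraries. The reporter-negative cells were thus above naive (2.86 (SE 0.18)) and the reporter-positive cells below it (-2.24 over naive). Zbp1, a sensor of nucleic acids, was at 135, 133 and 151, 455, 502 and 566 and 125, 163 and 138 CPM in the same order of groups. Oas3 rose by 2.25 (SE 0.13) and Stat2, which carries the type I interferon signal, by 1.61 (SE 0.07). The members that fell against naive were Ddx58, the RNA sensor RIG-I, from 257, 258 and 253 to 111, 133 and 139 CPM (-1.0 (SE 0.07)), Oasl1 (-1.28), Irf9 (-0.47) and Ifit2 (-0.43).

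Reporter-positive cells with SGC0946 had lower antiviral RNA than reporter-negative cells with the same compound in 26 of 27 members (median -1.84), where 27.8% of all genes were lower and 54.7% differed. The medians over naive were 0.99 for YFPneg SGC0946, 0.67 for YFPneg SGC0649 and -1.29 for YFPpos SGC0946; these share the naive libraries. For the interferon-gamma list they were 1.96, 1.82 and 0.5.

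**Figure D4:**
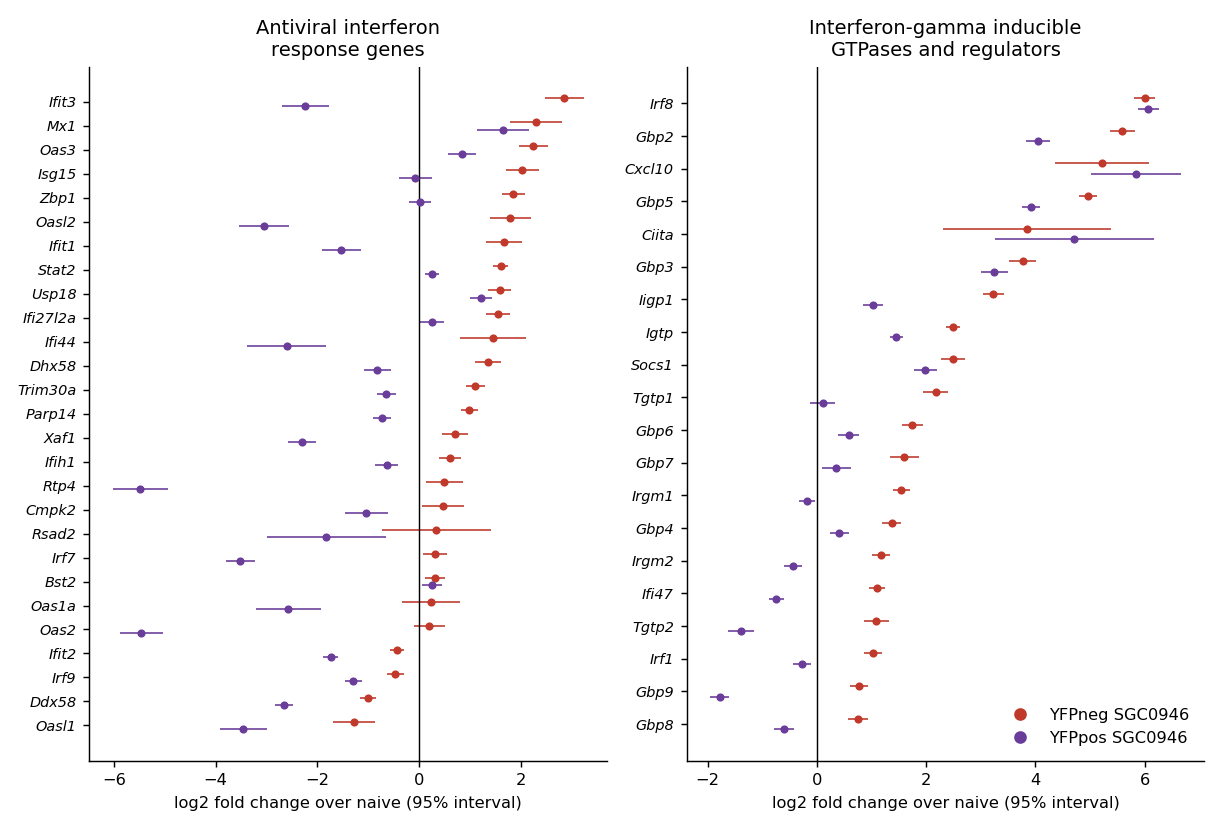
Log2 fold change over naive (x axis, with 95% intervals) of the antiviral list and the interferon-gamma list (panels, genes in rows) for YFPneg SGC0946 and YFPpos SGC0946 (colours), which share the naive libraries. In the antiviral panel the reporter-positive value is lower than the reporter-negative one for 26 of 27 genes, and the median over naive is -1.29 against 0.99.

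MHC class I presentation genes rose modestly, 8 of 12 higher and 2 lower (median 0.48). Tapbp, the peptide-loading factor tapasin, went from 377, 381 and 397 to 721, 744 and 673 CPM (0.89 (SE 0.07)) and the transporter Tap1 from 450.5, 435 and 452 to 675, 764 and 721 CPM (0.69 (SE 0.07)). The heavy chains H2-K1 (-0.43) and H2-D1 (-0.25), which are near copies of each other and of further class I genes, were lower. All 12 members were lower in YFPpos SGC0946 than in YFPneg SGC0946 libraries.

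Cell cycle RNA was higher in reporter-negative than in naive cells across the mitosis and replication lists. Promoters of DNA replication genes are known for E2F sites and those of mitotic genes for the cell cycle homology region (CHR). The next lines show 120 bases before the RefSeq start of 2 replication genes, with the E2F core TTCCCGC or TTGGCGC (either strand) in capitals, and of 2 mitotic genes, with the CHR letters TTTGAA (either strand) in capitals. The windows are chr17:56040296-56040415 (plus strand), chr7:102441575-102441694 (plus), chr10:69352913-69353032 (minus) and chr4:118437344-118437463 (minus) in GRCm38.p6.
Chaf1a: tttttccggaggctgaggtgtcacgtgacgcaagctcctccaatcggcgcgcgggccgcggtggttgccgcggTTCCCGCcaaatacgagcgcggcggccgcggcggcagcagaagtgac
Rrm1: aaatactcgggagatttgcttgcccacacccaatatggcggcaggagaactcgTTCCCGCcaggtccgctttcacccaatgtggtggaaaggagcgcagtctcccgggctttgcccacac
Cdk1: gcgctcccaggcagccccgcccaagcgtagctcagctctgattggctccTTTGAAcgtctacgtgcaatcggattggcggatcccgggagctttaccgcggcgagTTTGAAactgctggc
Cdc20: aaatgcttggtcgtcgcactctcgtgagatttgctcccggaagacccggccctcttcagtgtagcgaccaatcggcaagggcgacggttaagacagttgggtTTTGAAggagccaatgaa

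The E2F core lay in the 300-base window of 12 of 20 replication genes (60%), against 14.2% of all tested genes, and the CHR in that of 11 of 16 mitotic genes (68.8%) against 14%. The 6-letter CHR occurs often by its shortness, in 20.2% of the windows of all 27025 genes in the table. The CHR match nearest the start began 15 bases before it in Cdk1 and 18 bases in Cdc20.

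All 20 mitosis genes and all 25 DNA replication genes were higher than in naive cells, with medians of 6.18 and 2.85. Mki67, the proliferation marker Ki-67, went from 6.65, 7.47 and 6.01 CPM to 923, 901 and 922 CPM (7.09 (SE 0.08), adjusted p = 1.23e-19), with cultured libraries within a narrow range. Top2a, which untangles chromosomes, went from 10.4, 12.6 and 12 to 1096, 995 and 1119.9 CPM (6.52 (SE 0.08)), and Kif11, a spindle motor, rose by 6.28 (SE 0.09). Rrm2 and Rrm1, the subunits of ribonucleotide reductase, rose by 6.12 (SE 0.09) and 3.16 (SE 0.06), and Cdc6, which licenses origins, by 6.15 (SE 0.11). Medians over naive in the other cultured groups, which share the naive libraries, were 6.39 (mitosis) and 3.16 (replication) for YFPneg SGC0649 and 7.09 and 3.4 for YFPpos SGC0946.

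Of G1 regulators 12 of 15 were higher (median 1.12). The cyclins Ccne1 and Ccne2 rose by 3.55 (SE 0.08) and 6.26 (SE 0.22) and the kinase Cdk6 by 2.61 (SE 0.09). The inhibitors went in opposite directions: Cdkn1a, which encodes p21, went from 0.12, 0.0623 and 0.0567 CPM to 102, 94.5 and 75.3 CPM, and Cdkn1b, which encodes p27 and holds resting T cells out of cycle, fell from 384, 387 and 356 to 183, 193 and 229 CPM (-0.9 (SE 0.09)).

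Glycolysis genes were higher in 18 of 19 members (median 2.22). Hk2, the inducible hexokinase, went from 0.24, 0.81 and 0.567 CPM to 149, 146 and 111 CPM (7.97 (SE 0.18)) and Slc16a3, the lactate exporter MCT4, rose by 7.12 (SE 0.18). Tpi1 went from 22.4, 22.5 and 24.4 to 1236, 1328 and 1072 CPM (5.71 (SE 0.10)), although like Pgk1 (3.77 (SE 0.09)) it has processed copies in the genome that can take its reads. The member that fell, Pdk1, encodes a kinase that inhibits pyruvate dehydrogenase (625, 591 and 619 against 244, 263 and 274 CPM, -1.24 (SE 0.07)). Nuclear-encoded genes of the respiratory chain changed little (median 0.23), with 11 of 18 higher, such as Atp5b (0.78 (SE 0.05)) and Cox5a (0.81 (SE 0.06)).

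Cholesterol and fatty acid synthesis rose as a group, 21 of 22 higher and none lower (median 1.37). Cyp51, which demethylates lanosterol on the way to cholesterol, went from 53.6, 51.1 and 57.3 to 279.6, 279 and 272 CPM (2.36 (SE 0.09)), and the desaturase Scd2 rose by 3.79 (SE 0.13). Dhcr7 did not pass. NF-Y, which binds CCAAT boxes, is a known partner of the sterol-responsive factors, and the CCAAT box (CCAAT or ATTGG) lay in 13 of 14 windows of this list (92.9%), against 43% of all tested genes. It lay also in 14 of 16 windows of the mitosis list (87.5%). The 120 bases before the start of Mvk, which encodes mevalonate kinase, show 4 such boxes in capitals (chr5:114444149-114444268, plus strand, RefSeq GRCm38.p6).
Mvk: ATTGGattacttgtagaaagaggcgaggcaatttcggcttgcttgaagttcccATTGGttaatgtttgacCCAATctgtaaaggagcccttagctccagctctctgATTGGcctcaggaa

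Amino acid supply and the ATF4 response were higher in 14 of 17 members (median 1.16). Asns, which makes asparagine, went from 0.0599, 0.747 and 0.17 to 23.3, 17 and 20.4 CPM (5.97 (SE 0.28)), Psat1 of serine synthesis rose by 2.3 (SE 0.07) and the transporter Slc7a5 by 2.23 (SE 0.09). Slc38a2 (-0.15) passed with overlapping libraries. Myc rose from 120.03, 105 and 112 to 342, 346 and 326 CPM (1.58 (SE 0.07)), with its polyamine target Odc1 (3.52 (SE 0.08)), and 12 of 17 members of the Myc and ribosome biogenesis list were higher (median 0.46).

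RNAs of cytosolic ribosomal proteins moved the other way in 16 of 23 members (median -0.33), for example Rps19, at 429, 430.3 and 443 against 257, 286 and 221 CPM (-0.77 (SE 0.08)). Rps2 was higher (0.72 (SE 0.06)). Ribosomal protein genes have many processed copies, so these values are uncertain. Of 10 lysosome genes 6 were higher and 2 lower (median 0.35). Lamp2 rose by 1.3 (SE 0.10), and Hexa fell by 0.86 on the log2 scale.

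Among genes of the BCL2 family 10 of 14 were higher (median 0.77). Bcl2, which protects lymphocytes from death, went from 228, 247 and 238 to 386, 371 and 411 CPM (0.71 (SE 0.05)), while the proapoptotic Pmaip1 went from 1.2, 1.93 and 1.64 to 57.9, 35.9 and 37.2 CPM (4.78 (SE 0.24)) and Bak1 rose by 1.06 (SE 0.08). Members that fell include Bbc3 (-0.67), Bid (-0.64) and Mcl1 (-0.22). The call for Bmf was lost without naive replicate 3, YFPneg SGC0946 replicate 2 or YFPneg SGC0946 replicate 3. The p53 targets were mixed, 9 higher and 3 lower of 13: the death receptor Fas rose by 1.64 (SE 0.08) and Plk2 by 4.97 (SE 0.29), and Sesn1, which restrains mTORC1, fell from 228, 225 and 219 to 63.9, 71.8 and 66.8 CPM (-1.73 (SE 0.08)).

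RNA of the targeted enzyme itself was higher in the cultured cells. Dot1l (ENSMUSG00000061589, chr10:80755206-80795461) was at 161, 173 and 167 CPM in naive and 222, 219.99 and 221 CPM in YFPneg SGC0946 libraries (0.4 (SE 0.07), adjusted p = 3.51e-05). It was at 229 and 279.7 CPM in YFPneg SGC0649 libraries, and the difference between compounds did not pass (-0.2, 95% interval -0.36 to -0.05, adjusted p = 0.0894). SGC0946 blocks the enzyme's activity, so the RNA level does not check the labels of the compound. Of 11 genes for DOT1L and its partners 5 were higher and 6 lower (median -0.21), against 38.6% and 34.3% of all genes. Men1, which encodes menin, rose by 0.41 (SE 0.08) and Cdk9 by 0.29 (SE 0.05), whereas Kmt2a, which encodes the H3K4 methyltransferase MLL1, fell from 1230.4, 1372 and 1264 to 757, 794 and 937 CPM (-0.64 (SE 0.07)) and its fusion partners Aff1, Mllt6 and Aff4 by 0.84, 0.66 and 0.55 on the log2 scale.

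The wider set of histone and DNA methylation enzymes had 9 higher and 8 lower of 20 (median 0.02), near the shares of all genes (38.6% and 34.3%). Uhrf1, which guides maintenance methylation of DNA, went from 4.79, 6.23 and 5.1 to 273, 295 and 297 CPM (5.75 (SE 0.08)), Ezh2, the H3K27 methyltransferase, from 40.7, 43.2 and 43.6 to 215, 185 and 204 CPM (2.24 (SE 0.07)), and Dnmt1 rose by 0.8 (SE 0.05). Tet3, which oxidises methylcytosine, fell by 0.86, and Nsd1, an H3K36 methyltransferase, by 0.69 on the log2 scale.

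Genes with the largest fitted rises in the set given next had no count in naive libraries, and their fitted value depends on the prior count. The order is thus not one of measured fold changes. Ifng, with 3 naive counts, had a ratio of 1186, above each bound listed here after Ccl4. Among genes whose mean log2 CPM reached 3 and whose libraries did not overlap between groups, the 12 with the largest fitted rise had no count in any naive library, so only a lower bound can be given. After Ccl4 these were Ly6g (at least 983-fold), Gstt1 (911), Serpinb5 (719), Tnfrsf8 (371), Spp1 (345), Hlx (293), Slc17a6 (272), Vldlr (259.6), Serpinf1 (243), Lrr1 (224) and Cetn4 (212), each number being the least fold. Ly6g, the marker of neutrophils, was at 64.1, 74.2 and 33.7 CPM, while the 6 neutrophil markers summed to 0 in every YFPneg SGC0946 library, and it belongs to a family of near copies. Gstt1, a glutathione transferase, was at 53, 64 and 44.9 CPM, Spp1, the secreted protein osteopontin, at 28.8, 20.3 and 10.2 CPM, Hlx, a partner of T-bet, at 20.6, 22.1 and 8.09 CPM and Tnfrsf8, which encodes CD30, at 32.2, 22 and 9.06 CPM. YFPneg SGC0946 replicate 3 was the lowest cultured library for Ly6g, Gstt1, Tnfrsf8, Spp1 and Hlx but not for Lrr1 or Cetn4. In all, 373 tested genes had no count in naive libraries and 315 of them passed as higher, where 38.6% of all genes did. Such genes passed the filter only through counts in cultured groups, so a call against naive could only be higher.

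Among the 12 largest falls was that of Slc16a5. This gene, which encodes a monocarboxylate transporter, went from 102, 93.3 and 92.2 CPM to 0.32, 0.624 and 0.209 CPM (-7.93 (SE 0.25)). Rasgrp2, which activates RAP1 for integrin adhesion, was abundant in naive cells and went from 811, 830.01 and 816 to 38.9, 52.3 and 47.1 CPM (-4.15 (SE 0.11)). Fam101b went from 353, 335 and 339 to 17.4, 16.7 and 18 CPM (-4.3 (SE 0.09)), and Hsd11b1, which regenerates active glucocorticoid, from 108, 107 and 112 to 4.75, 5.86 and 6 CPM (-4.3 (SE 0.21)). Ttc28 (-3.82) and Cnga1 (-3.76) complete this set with Dtx1 and Ikzf2, described above.

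The other 4 of the 12 largest falls were Lars2 and 3 genes of the mitochondrial genome, and they had an unusual order of groups. Lars2, which encodes the leucyl-tRNA synthetase of mitochondria, was at 1568, 1271 and 1338 CPM in naive, 81.7, 164 and 67.6 CPM in YFPneg SGC0946, 125 and 69.8 CPM in YFPneg SGC0649 and 1093, 1008 and 1244 CPM in YFPpos SGC0946 libraries. mt-Co3 was at 40.5, 44.8 and 36.7, 1.01, 2.75 and 0.837, 1.32 and 1.8 and 36.8, 6.87 and 37.9 CPM in the same order. All reporter-negative libraries were thus below all naive and reporter-positive libraries for both genes, as for mt-Atp6 (-4.77 (SE 0.53) against naive) and mt-Co2 (-3.64 (SE 0.47)). For the mitochondrial genes YFPpos SGC0946 replicate 2 stood apart from its group: mt-Atp6 was at 15.5, 3.06 and 16.1 and mt-Co2 at 27, 5.24 and 29.3 CPM in YFPpos SGC0946 replicates 1 to 3. Lars2 did not show this gap. The sum of all mitochondrial genes did not show this, at 1.57% to 1.60% of counts in naive and 1.46% to 1.80% in YFPneg SGC0946 libraries. The share of unmapped reads was also lower in YFPneg SGC0946 (3.14% to 4.62%) than in naive libraries (7.40% to 8.66%). It was 3.44% and 4.41% in YFPneg SGC0649 and 7.58%, 3.61% and 8.12% in YFPpos SGC0946 libraries, so that YFPpos SGC0946 replicate 2 was low here too, and the part of this share in the pattern was not tested. These mitochondrial genes have nuclear copies, so their values are uncertain.

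Genes with no count in any YFPneg SGC0946 library numbered 43, of which 26 passed as lower, where 34.3% of all genes did. Such genes passed the filter only through counts in other groups, so a call against naive could only be lower. The 6 highest of these in naive libraries were Fcgrt (6.17, 6.73 and 7.82 CPM, at least 113-fold lower), Adam6b (at least 103-fold), Vcam1 (5.27, 1.87 and 4.08 CPM, at least 61.7-fold), Slc40a1 (at least 38.3-fold), Cd177 (at least 30.5-fold) and Csf1r (2.16, 1.37 and 1.98 CPM, at least 30.2-fold lower). Fcgrt is the neonatal Fc receptor, Slc40a1 the iron exporter ferroportin and Csf1r the receptor that defines macrophages, and all 6 were low in naive libraries too. C1qa, C1qb, C1qc, Cd163 and Spic, which are known from macrophages and were picked out after their values were seen, were also at 0 in the YFPneg SGC0946 libraries and passed as lower, by at least 11.4-fold (Spic) to 20.5-fold (C1qb).

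Markers of other cell types were summed beside these results. The 6 markers of CD4 T cells summed to 3167 to 3284 CPM in naive and 2275 to 2419 CPM in YFPneg SGC0946 libraries, so these markers were abundant in both groups. CD8 markers (2 of 2 with a count) summed to 16.1 to 19.3 and 12.2 to 19.7 CPM, the 9 B cell markers to 1.68 to 2.89 and 0.0697 to 2.24 CPM (Blk, Cd22, Fcer2a and Pax5 at 0 in all YFPneg SGC0946 libraries), and the 8 macrophage markers to 13.6 to 15 and 11.4 to 14.2 CPM (Csf1r and Fcgr1 at 0). Behind the similar macrophage sums, 4 of the 6 tested markers (Lyz2, Cd68, Csf1r and Adgre1) were lower by at least 2-fold, 1 (Mpeg1, by 2.22 on the log2 scale) was higher and the median was -1.75. The 6 dendritic cell markers summed to 0.659 to 1.59 and 1.06 to 2.56 CPM (Clec9a, Siglech and Xcr1 at 0), with Zbtb46 higher by 2.21 on the log2 scale and Flt3 not called, and the 7 NK markers to 0.872 to 2.49 and 1.56 to 3.63 CPM (Klra8 at 0). The CD8, B cell and NK sums also hid differences. Of 2 CD8 markers 1 was higher (2.62, with overlapping libraries) and 1 was not called (-0.37). Of 3 B cell markers tested 1 was higher (4.36, also overlapping) and 2 were lower. Of 4 NK markers tested 2 were higher and 1 was lower (-3.64). The 6 MHC class II genes summed to 15.4 to 22.6 CPM in naive and 119 to 143 CPM in YFPneg SGC0946 libraries, and the part of other cell types in that difference was not tested. The 4 Y-linked genes summed to 645 to 719 against 325 to 426 CPM, each passing as lower, and the part of this in other differences was not tested.

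SGC0946 and SGC0649 were compared in reporter-negative cells at 1 µM and day 4, with 3 against 2 libraries, because SGC0649 serves as the inactive control. The YFPneg SGC0946 libraries are the same as in the comparison with naive cells. Of 12343 genes, 1065 (8.63%) differed, 616 (4.99%) higher and 449 (3.64%) lower with SGC0946, and by at least 2-fold 247 (2%) higher and 37 (0.3%) lower. Of the 9003 genes that differed from naive, 919 (10.2%) also differed between compounds. Those higher with SGC0946 divided into 406 that were above naive, 131 that were below it and 79 not called against it. Those lower with SGC0946 divided into 256, 126 and 67. The number of calls depended on the model: 199 genes passed with only these 2 groups in the model and 1615 with DESeq2. Leaving out either YFPneg SGC0649 library left a single library in that group. This limits what the calls given below without YFPneg SGC0649 replicate 2 can show.

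For Tbx21 and Irf8, and for Ccr7 and Tcf7 of the naive list, the difference between compounds was small and did not pass. Other members of the Th1 list did pass, as given below. Tbx21 differed by 0.05 on the log2 scale (95% interval -0.09 to 0.19), Irf8 by 0.14 (-0.01 to 0.29), Ccr7 by 0.06 (-0.09 to 0.21) and Tcf7 by 0.14 (-0.01 to 0.3). Ifng stood at 42.2 and 25.4 CPM with SGC0649 and 114, 55.4 and 31.2 CPM with SGC0946, overlapping, and the difference of 1.0 (SE 0.36) did not pass (adjusted p = 0.0938, 95% interval 0.23 to 1.77). Of the Th1 list 9 of 29 were higher and 1 lower with SGC0946 (median 0.26), against 4.99% and 3.64% of all genes and a median of 0.01. Without YFPneg SGC0649 replicate 2 the 9 became 3.

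DNA replication genes were lower with SGC0946 in 13 of 25 members and none higher (median -0.24), a small difference beside the rise of 2.85 over naive. The count fell to 2 without YFPneg SGC0649 replicate 2 and to 1 with only these 2 groups in the model. Rrm1 was at 443 and 430.2 CPM with SGC0649 and 378, 365 and 365 CPM with SGC0946 (-0.24 (SE 0.06), adjusted p = 0.0163). Glycolysis genes were higher in 8 of 19, 0 without that replicate, and antiviral genes in 7 of 27, 2 without it. Chemokine and receptor genes were higher in 6 of 15 and none lower. The chemokine count was 5 or 6 in every alternative run.

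Genes that differed from naive and most between compounds were named by rule. Those higher with SGC0946 were Vldlr, a lipoprotein receptor (1.37 and 2.21 CPM with SGC0649, 14.1, 16.3 and 16.2 with SGC0946, 3.12 (SE 0.30)), Mt2, a metal-binding protein (2.57 (SE 0.64)), Serpinf1 (2.39 (SE 0.39)), Uchl1, a ubiquitin hydrolase (2.33 (SE 0.24)), Itga7, an integrin chain (15.4 and 8.73 against 57.6, 69.7 and 47.7 CPM, 2.27 (SE 0.35)) and Tnfrsf8 (2.25 (SE 0.41)). Those lower were Enah (-1.92 (SE 0.39)), Scin (-1.75 (SE 0.50)), Lad1 (-1.37 (SE 0.38)), Socs2, a feedback inhibitor of STAT5 signalling (98.2 and 112 against 46.4, 47.7 and 32.3 CPM, -1.31 (SE 0.15)), Lta, which encodes lymphotoxin (79.6 and 124 against 51.5, 41.4 and 40 CPM, -1.19 (SE 0.25)), and Myo6 (-1.05 (SE 0.27)). Among these 12 genes the libraries of the compounds overlapped only for Mt2. Foxp3 was at 28.3 and 32.4 CPM with SGC0649 and 16.9, 12.4 and 15.5 CPM with SGC0946 (-1.02 (SE 0.23), adjusted p = 0.0129), and this call was lost without YFPneg SGC0649 replicate 2. Calls for Mt2 and Scin were each lost under 6 of 14 alternatives.

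In 3 genes that differed between compounds, and whose mean log2 CPM reached 1, the compounds gave opposite calls against naive. Jup, which encodes the junction protein plakoglobin, was at 5.09, 6.67 and 4.31 CPM in naive, 10.5, 11.2 and 7.81 CPM with SGC0946 and 3.5 and 2.36 CPM with SGC0649. Mbnl3 was at 21, 22.1 and 18.1, 17.3, 17.5 and 15.2 and 28.1 and 26.7 CPM and Wdr83os at 25.3, 27.8 and 25.6, 21.4, 25.3 and 19.6 and 31.6 and 31.1 CPM in that order. The naive level thus lay between the compounds, and for Mbnl3 and Wdr83os the fall against naive was small (-0.29 and -0.25). The Mbnl3 call against naive was lost under 7 of 15 alternatives, among them without naive replicate 1, naive replicate 2 or YFPneg SGC0946 replicate 3. That of Wdr83os was lost under 10 of 15, among them without any single library of these groups except YFPneg SGC0946 replicate 2. The call for Jup held under all 15.

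**Figure D5:**
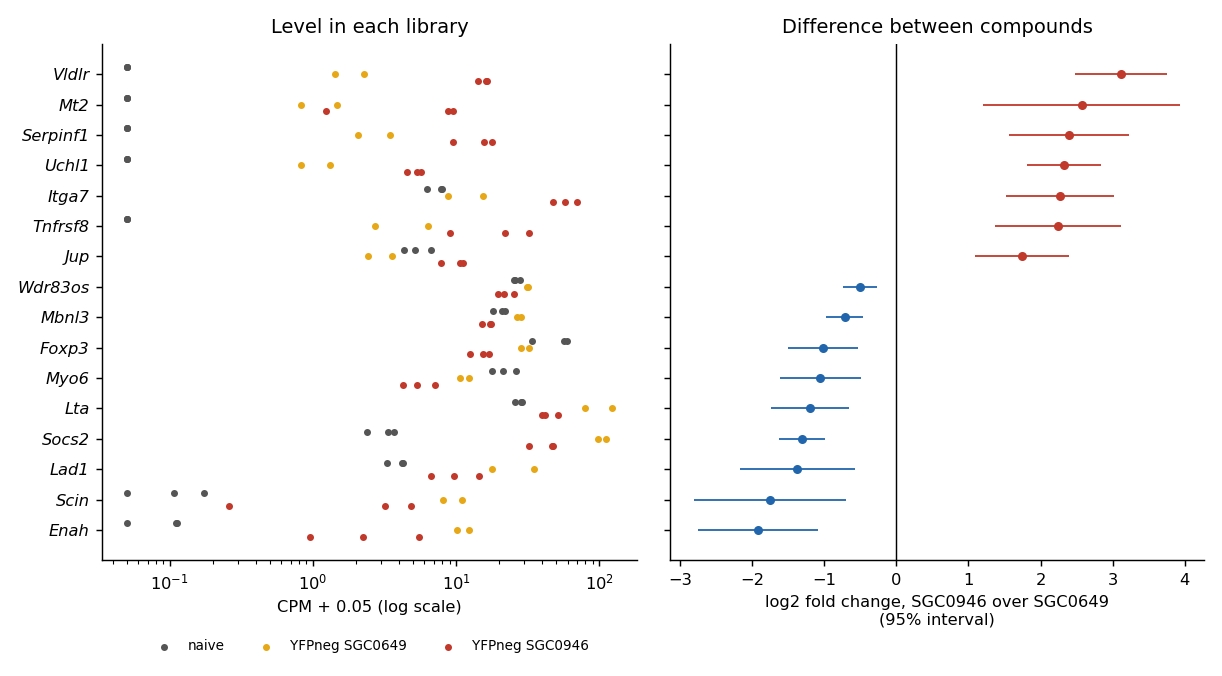
Left, CPM + 0.05 on a log scale (x axis) of 16 genes (rows) in each library of naive, YFPneg SGC0649 and YFPneg SGC0946 (colours); right, log2 fold change of SGC0946 over SGC0649 with its 95% interval. Vldlr has the largest difference (3.12), and Mbnl3 and Wdr83os the smallest (-0.72 and -0.5).

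Reporter-positive and reporter-negative cells from cultures with SGC0946 differed in 6752 genes (54.7%), 3321 (26.9%) higher and 3431 (27.8%) lower in the positive cells. Which direction held more genes depended on the scaling, since RLE size factors gave 3716 higher and 3048 lower, library totals only 3681 and 3079, and DESeq2 3783 and 3109. Effector lists were further from naive in reporter-positive cells: the Th1 list had 21 of 29 members higher and 7 lower there (median 0.72), and the cytotoxic list 12 of 15 higher (median 1.04). Gzmb stood at 4665, 5123 and 4971 CPM (1.02 (SE 0.11) over YFPneg SGC0946, adjusted p = 6.86e-07). All 20 mitosis genes were higher (median 0.94) and 23 of 25 naive and quiescence genes lower (median -1.16). Over naive the medians of the naive list were -1.0 in YFPneg SGC0946, -1.3 in YFPneg SGC0649 and -2.36 in YFPpos SGC0946, which share the naive libraries.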

How the data were processed

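RNA sequencing libraries were grouped by their labels: 3 naive, 3 YFPneg and 3 YFPpos with SGC0946, and 2 YFPneg and 3 YFPpos with SGC0649. The file the authors deposited holds raw counts of reads for each gene, unnormalized whole numbers, which by its own headers covers protein-coding genes counted on the reverse strand. Per the submitters' processing notes the build was GRCm38 and featureCounts, edgeR and limma were used; the aligner, like the version of each tool, was not given in the sources used here. It held 22048 genes, of which 21858 were found in GENCODE M21, and every gene row was kept in the library totals. The deposited summary of read assignment gave the share of unmapped reads.

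Genes were filtered with edgeR's filterByExpr by group (12343 kept), scaled by TMM and fitted over all 14 libraries with 1 coefficient per group in edgeR 4.0.16 (R 4.3.3), with the quasi-likelihood F test and Benjamini-Hochberg adjustment at 0.05. The common dispersion corresponds to a biological coefficient of variation of 9.12%. Standard errors were derived from the F statistic. Fitted fold changes use a prior count of 0.125. For a group with no counts a bound was taken at 3 counts over the group, and for 1 to 3 counts the ratio is given with a 95% interval that covers counting error only. The fitting script was tested on simulated counts.

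Genes were named by rule: 11 fixed genes; the 12 largest rises and 12 largest falls among called genes whose mean log2 CPM reached 3 and whose libraries did not overlap; up to 4 members with the smallest p in each direction of each of 33 gene lists; up to 8 genes called in opposite directions with the 2 compounds; the 6 highest genes with no count in either group; and the 6 largest differences in each direction between compounds among genes also called against naive. Members named because they were the rest of a list were named after their values were seen. A few genes this rule picks are left unreported here. The members and lists were chosen with earlier results of these data known. Lists are described by counts and medians, with no test of the list.

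Alternatives were DESeq2 1.42.0, limma-voom (limma 3.58.1), RLE factors, library totals only, no filter, a stricter filter (at least 1 CPM in 3 libraries), a replicate block, a model of only the 2 groups compared, and leaving out each library. Assigned reads as the library total were added after seeing the data. Promoter windows came from RefSeq (GRCm38.p6), matched by symbol for 9413 of 12340 tested symbols.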

Additional observations from a re-analysis of the deposited data

Results flagged for a closer look

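Groups of 3 or fewer libraries allow no test for a single library that stands apart, so the values here are differences between the compounds in reporter-negative cells, which is also the difference between their effects over naive, since both are set against the same naive libraries. They were looked for among the fixed genes, the genes called in opposite directions and the genes with the largest differences between compounds. Values are log2 fold changes of SGC0946 over SGC0649 that passed edgeR's quasi-likelihood test with Benjamini-Hochberg adjustment, with the range of the adjusted p over 14 alternatives.

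Genes higher with SGC0946 were Vldlr by 3.12 (adjusted p 8.21e-21 to 0.0065), Mt2 by 2.57 (0.000365 to 0.165), Serpinf1 by 2.39 (4.67e-08 to 0.0484), Uchl1 by 2.33 (1.62e-12 to 0.0401), Itga7 by 2.27 (2.25e-05 to 0.0381), Tnfrsf8 by 2.25 (0.000116 to 0.0741) and Jup by 1.74 (5.33e-06 to 0.0536). Genes lower with SGC0946 were Enah at -1.92 (0.000442 to 0.0671), Scin at -1.75 (0.011 to 0.187), Lad1 at -1.37 (0.00208 to 0.33), Socs2 at -1.31 (2.76e-12 to 0.00881), Lta at -1.19 (0.000836 to 0.141), Myo6 at -1.05 (0.00434 to 0.132), Foxp3 at -1.02 (0.00101 to 0.0961), Mbnl3 at -0.72 (1.45e-05 to 0.052) and Wdr83os at -0.50 (0.00105 to 0.184). Vldlr, Serpinf1, Uchl1, Itga7 and Socs2 passed under all 14 alternatives. Without YFPneg SGC0649 replicate 2 the calls for Foxp3, Tnfrsf8, Jup, Wdr83os, Mt2, Enah, Scin, Lad1, Lta and Myo6 were lost. Reporter-negative libraries with the compounds did not overlap for any of these genes except Mt2, where YFPneg SGC0946 replicate 3, at 1.19 CPM, lay with the SGC0649 libraries.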

How the results depend on the processing

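The number of genes differing between YFPneg SGC0946 and naive stayed within 1.5 times of 9003 under all alternatives run: 7945 with only these groups in the model, 8694 with the stricter filter, 8775 with limma-voom, 9091 with DESeq2, and 8373 to 9221 when 1 library was left out. With library totals only, the split was 5018 higher and 3956 lower. The sort comparison stayed within 1.5 times of 6752 (5713 to 6805 when 1 library was left out, 5866 with only these groups in the model), while its split turned from 3321 higher and 3431 lower to 3716 and 3048 with RLE size factors. The comparison of compounds did not: against 1065 genes, DESeq2 called 1615, a model of only these groups called 199 (161 higher and 38 lower; fewer residual degrees of freedom and fewer genes were available to it), and leaving out 1 library gave 335 (without YFPneg SGC0649 replicate 2) to 1520 (without YFPneg SGC0946 replicate 3). The causes of the DESeq2 difference and of the drop with only these groups in the model were not tested. The main p-values rest on 1 estimate of spread per gene, shared by all groups. Pairs of YFPneg SGC0946 libraries correlated less (0.9633 to 0.9795) than pairs of naive libraries (0.9941 to 0.9945).

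Deviations of same-numbered libraries correlated at -0.005, -0.061 and -0.094 between naive and YFPneg SGC0946. Between YFPneg SGC0946 and YFPpos SGC0946 they correlated at 0.112, 0.147 and -0.006. With 3 libraries in a group these values cannot decide whether replicate numbers pair the samples. The main fit left pairing out, for the sort comparison too. With a replicate block 8970 genes differed from naive, 1272 between compounds and 6796 between sorts. No library of YFPneg SGC0946 correlated best with its own number among the naive libraries; among the YFPpos SGC0946 libraries replicates 1 and 2 did and replicate 3 did not.

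Of the 235 named genes, none changed sign against naive and 15 lost the call under at least 1 of 15 alternatives. Of 990 counts of list members against naive, over the lists, directions and alternatives, 21 moved by over 1.5 times, all of them counts of 8 or fewer members; among them the lower follicular helper genes went from 4 to 2 without naive replicate 2 or 3. Precision is limited by 3 libraries in a group, or 2 with SGC0649, and for genes near 0 counts by depth.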

Other observations

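Other members of the lists, chosen after their values were seen, moved with the groups described. Among MHC class II genes, Cd74, the invariant chain, was at 3.24 ± 1.1 CPM (mean ± SD, n = 3) in naive and 76.8 ± 8.02 CPM in YFPneg SGC0946 libraries (4.55 (SE 0.16) on the log2 scale), and H2-Ab1 was at 0.584 ± 0.366 and 20.1 ± 3.29 CPM (5.07 (SE 0.33)). Ciita, which switches these genes on, stayed at low levels, 0.0982 ± 0.0881 and 1.54 ± 0.988 CPM (3.85 (SE 0.73)). Lif, a cytokine of the IL-6 family, went from 0.332 ± 0.206 to 107 ± 12 CPM (8.28 (SE 0.40)). Ly6c1, a marker of effector and memory T cells, went from 109 ± 11.1 to 514 ± 47 CPM (2.24 (SE 0.22)) and had a mean of 302 CPM in YFPpos SGC0946 libraries. Dapl1, a gene of resting T cells, fell from 88.3 ± 6.87 to 10.1 ± 2.31 CPM (-3.13 (SE 0.20)) and had a mean of 0.707 CPM in YFPpos SGC0946 libraries. All 6 passed edgeR's quasi-likelihood test against naive, and none of these values was tested further.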
